A study of Mus musculus with 4 samples.

Results

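The genes described here are 58 genes of mitosis, the spindle and the kinetochore, grouped by role into kinases, CDC25 phosphatases, cyclins, kinesins, centromere and kinetochore genes, genes of the anaphase-promoting complex with separase, condensin genes, genes of the spindle and of cytokinesis, and mitotic chromosome genes. A gene was included where a row of the array carried its symbol and no other, and a gene with more than 1 such row was read from the brightest, by its mean over all samples. Of the 58 genes, 57 had a row, out of 19938 genes tested, and Ccnb1 (cyclin B1) was not analysed here. Their RNA was read on Affymetrix mouse arrays in 4 samples of lung fibroblasts cultured from mice aged 3 to 4 weeks. Samples A and B of a line with the oncogenic KrasD12 allele were compared with samples A and B of a wild-type (WT) line. All 4 samples were outgrowths of collagenase-digested lung kept in serum medium without treatment. Each genotype is a single line by its title, so an effect of the allele and a difference between lines cannot be told apart, and no Cre driver or promoter for the allele is named in the labels. Nothing says that A and B were separate cultures, so the p-values rest on the spread within these pairs of samples, which may be technical.

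Mitosis is driven by CDK1 with its cyclins. CDC25 phosphatases switch this kinase on, and Aurora and Polo-like kinases build the spindle. Kinetochores, protein assemblies on centromeric chromatin, bind the spindle microtubules, and unattached kinetochores hold back the anaphase-promoting complex (APC/C) through the spindle checkpoint until CDC20 is released. The APC/C then marks securin and cyclin B for destruction, separase cuts cohesin, and the central spindle directs cytokinesis. Transcripts of most of these genes peak in G2 and mitosis and are low in resting cells, which is why they are widely read as proliferation markers. In fibroblasts in culture their level therefore also follows how many cells are dividing. In bulk RNA, fewer cells in mitosis and less RNA per cell cannot be told apart.

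The deposited log2 columns of the 2 groups did not share 1 distribution. Their medians were 6.24 and 6.26 in KrasD12 samples and 5.9 and 5.91 in WT samples, and the median gene was 0.26 higher in KrasD12. Each gene was therefore tested with limma on the values as deposited, and a further time with the 4 columns quantile normalized, where the median difference of all genes was -0.0038. The words rose and fell are kept for genes whose Benjamini-Hochberg adjusted p was under 0.05 in the same direction on both scalings. Differences are KrasD12 minus WT on the deposited log2 scale unless quantile normalization is named, with limma's moderated SE after ± and n = 2 per group. Levels of different genes come from different probes and are not set against each other. Of the 57 mitosis genes, 53 had a mean above the dim level of 5.152, the 95th percentile of olfactory and vomeronasal receptor rows, and Ttk, Kif14, Kif18a and Cenph lay below it. All 11 fibroblast markers measured were above that level. Of these 4 fell (36.4%, against 11.5% of all genes), namely S100a4 (-1.0), Col1a1 (-0.595), Pdgfrb (-0.495) and Thy1 (-0.31). Fn1 (0.44) and Pdgfra (0.26) rose (18.2%, against 22.4% of all genes). The mean of 6 smooth muscle and myofibroblast markers was 7.012 and 6.923 in KrasD12 samples, against 8.29 and 8.233 in WT samples, 5 of the 6 fell, and 5 of the 6 lay above the dim level. The mean of 11 epithelial markers was 5.516 and 5.606 in KrasD12 samples and 5.089 and 5.097 in WT samples, with 7 above the dim level. Of these 11, Sftpc and Sftpb rose (18.2%, against 22.4% of all genes), and both WT samples of Sftpc (4.39 and 4.3) lay below the dim level. The median difference of the 11 was 0.49 as deposited and 0.1675 after quantile normalization. Of 7 blood and macrophage markers 4 lay above the dim level (Cd68, Csf1r, Lyz2 and Cd3e) and Ptprc, Adgre1 and Itgam below it. Their mean was 5.034 and 5.109 in KrasD12 samples and 4.984 and 4.987 in WT samples. Lyz2 and Csf1r fell, with differences of -1.475 and -0.43, Adgre1 rose at dim values, and Cd68 was higher on the deposited values alone, at 0.71. Of 7 endothelial markers 3 lay above the dim level, as did 3 of 4 mesothelial markers, and none of either list rose or fell. The part of these marker differences in the results below was not tested.

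The mitosis genes did not move as 1 block. On both scalings 3 rose in KrasD12 (Cdc25b, Ube2c and Cdc20), 12 fell (Pttg1, Cenpf, Kif4, Nuf2, Spc24, Bub1, Racgap1, Mad2l1, Ccna2, Kif20b, Ncapg and Bub3) and 42 did neither. The 3 that rose were 5.26% of the 57, where 22.4% of all genes tested rose, and the 12 that fell were 21.1%, where 11.5% of all genes fell. No difference reached 2-fold on the deposited values, and the range ran from -0.74 to 0.755. The median difference was 0.065 on the deposited values, against 0.26 for all genes, and -0.2444 after quantile normalization, against -0.0038 for all genes. The 53 mitosis genes with a mean of 5 to 8 can be set beside the 9150 genes in that range. Of the 53, 3 rose (5.66%) and 11 fell (20.8%), against 23.7% and 11.1% of the 9150. The calls were not stable to the loss of an array. On the deposited values calls were lost among all genes tested as well, and most of all with a WT sample left out. Whether the mitosis genes lost a larger share of their calls than all genes was not tested. A fit without an array leaves 1 sample in a group, so its calls carry little weight. The groups of the 15 genes that rose or fell do not overlap, so these fits could not change a deposited sign.

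**Figure D1:**
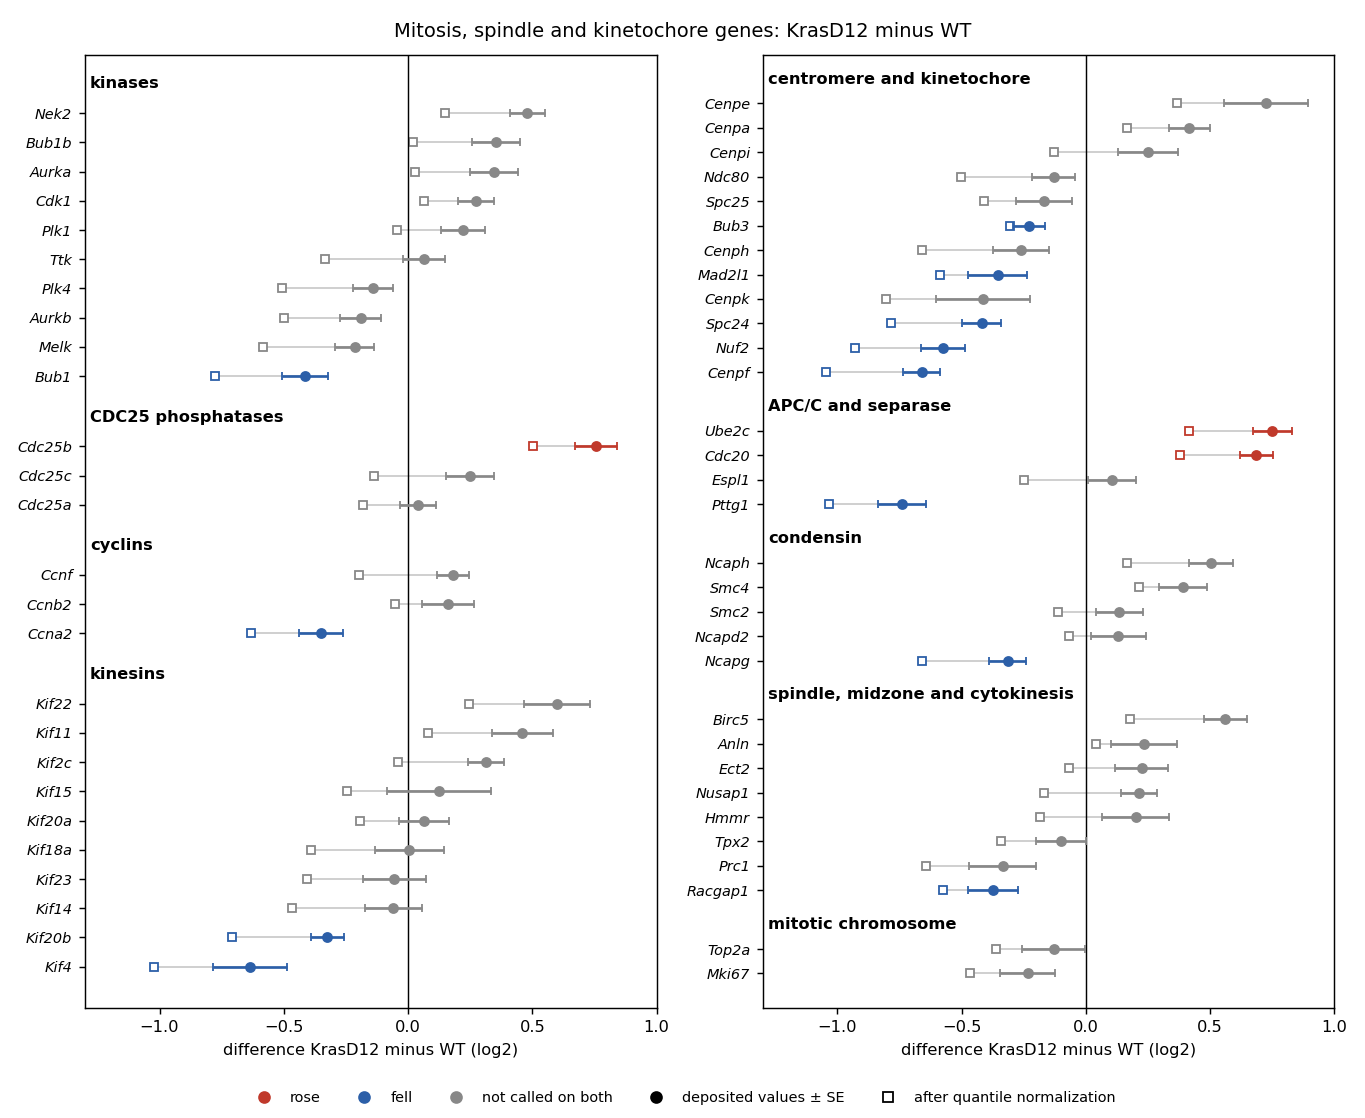
Differences (KrasD12 minus WT, log2) of the 57 mitosis genes with a row, ordered by role, as deposited and after quantile normalization. Cdc25b, Ube2c and Cdc20 lie above 0 on both scalings, and the centromere and kinetochore genes, the largest group, hold 5 of the 12 that fell.

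The scaling decided many of the other calls. On the deposited values alone 16 of the 57 were higher in KrasD12 (28.1%, against 50.1% of all genes) and 12 were lower (21.1%, against 11.9% of all genes). After quantile normalization 3 were higher (5.26%, against 22.5% of all genes) and 26 were lower (45.6%, against 24.4% of all genes). Both KrasD12 samples lay above both WT samples on the deposited values in 21 mitosis genes (36.8%, where 64.3% of all genes did so), and both lay below in 20 (35.1%, where 18.7% of all genes did so). The deposited shift also depended on the level of a gene. The median difference of all genes was 0.39 for means of 5 to 6, 0.315 for 6 to 7, 0.205 for 7 to 8, and -0.145 for 11 to 12. Set against the median of all genes with a like mean, 41 of the 57 mitosis genes lay below it, and the median of their differences less that median was -0.21.

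**Figure D2:**
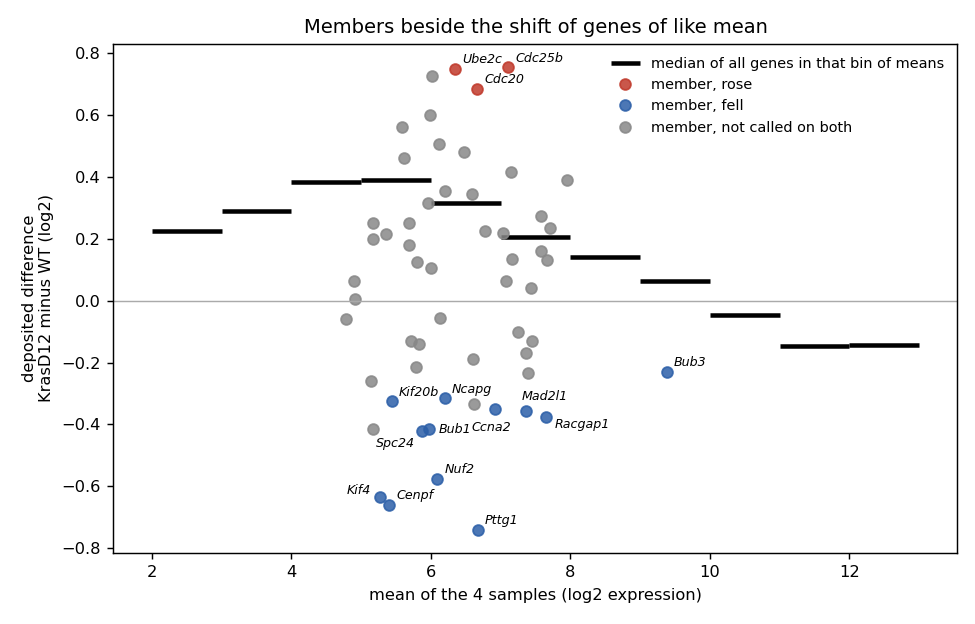
Deposited difference (KrasD12 minus WT, log2) of each mitosis gene against its mean over the 4 samples, with black bars for the median of all genes in bins of 1 log2 unit. Of the 57 points, 41 lie below the bar of their bin, and Cdc25b, Ube2c and Cdc20 lie above it.

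The promoters of genes at both ends of this range are shown because G2/M genes are known for a shared promoter grammar. The cell cycle genes homology region (CHR) is bound by the MuvB complex with B-MYB and FOXM1 in dividing cells and with repressors in resting cells, and CCAAT boxes beside it are bound by NF-Y. Both motifs were searched on both strands of the RefSeq promoters (assembly GRCm38.p6, 250 bases before to 50 after the start), as TTTGAA or TTCGAA for the CHR and as CCAAT. A matching promoter entry was found for 50 of the 57 genes. Below, 150 bases from 120 before to 30 after the start are given for the 3 genes that rose, for the 3 largest falls, and for Cdc25a, the gene above the dim level with the smallest difference among those with an entry. They run 5′ to 3′ on the gene's strand, and capitals mark the CHR and CCAAT letters on either strand (CCAAT reads ATTGG and TTTGAA reads TTCAAA on the other strand). The windows are chr2:131186828-131186977 (plus strand), chr2:164769809-164769958 (plus), chr4:118437314-118437463 (minus), chr11:43425952-43426101 (minus), chr1:189688057-189688206 (minus), chrX:100625945-100626094 (plus) and chr9:109875459-109875608 (plus), in the order of the lines.
Cdc25b: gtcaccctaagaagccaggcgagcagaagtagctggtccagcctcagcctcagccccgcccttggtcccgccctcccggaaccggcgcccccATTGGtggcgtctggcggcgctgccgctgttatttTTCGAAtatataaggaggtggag
Ube2c: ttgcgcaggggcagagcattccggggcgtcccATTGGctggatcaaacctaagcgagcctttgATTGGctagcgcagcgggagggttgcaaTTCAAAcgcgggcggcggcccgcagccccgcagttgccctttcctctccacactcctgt
Cdc20: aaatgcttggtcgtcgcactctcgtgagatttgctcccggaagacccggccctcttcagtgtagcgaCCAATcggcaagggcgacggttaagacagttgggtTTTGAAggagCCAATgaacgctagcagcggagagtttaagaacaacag
Pttg1: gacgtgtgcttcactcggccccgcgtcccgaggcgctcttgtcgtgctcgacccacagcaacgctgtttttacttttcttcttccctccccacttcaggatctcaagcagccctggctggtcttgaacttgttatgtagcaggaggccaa
Cenpf: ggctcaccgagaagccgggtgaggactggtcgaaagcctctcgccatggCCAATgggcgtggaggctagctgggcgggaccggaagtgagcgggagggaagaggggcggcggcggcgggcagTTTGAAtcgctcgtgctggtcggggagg
Kif4: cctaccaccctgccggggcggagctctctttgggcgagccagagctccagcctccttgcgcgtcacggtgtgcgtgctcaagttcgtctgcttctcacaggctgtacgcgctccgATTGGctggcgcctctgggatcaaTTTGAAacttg
Cdc25a: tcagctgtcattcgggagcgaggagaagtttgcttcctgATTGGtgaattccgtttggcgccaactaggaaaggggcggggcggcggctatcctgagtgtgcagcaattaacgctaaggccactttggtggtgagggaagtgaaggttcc
All 3 genes that rose carried both motifs in the 300 bases searched. Of the 3 largest falls, Cenpf and Kif4 carried both and Pttg1 carried neither. Cdc25a carried 2 CCAAT boxes and no CHR match.

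Over the 50 mitosis genes with a promoter entry, 35 (70%) held a CHR match, against 21.7% of the 27025 genes of the promoter table. CCAAT was found in 36 (72%), against 41.1% of all genes, and 30 (60%) held both motifs, against 8.61% of all genes. The share with a CHR match was 3 of 3 among genes that rose, 7 of 10 (70%) among genes that fell and 25 of 37 (67.6%) among the rest. For CCAAT these counts were 3 of 3, 6 of 10 (60%) and 27 of 37 (73%). Top2a, the type II topoisomerase that untangles sister chromatids, held 4 CHR matches and 6 CCAAT boxes and had a difference of -0.13 ± 0.1258 (adjusted p = 0.4). A match describes the letters of the window and is not a bound site.

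Genes of the APC/C and its substrate showed the widest split. Ube2c, the E2 ubiquitin-conjugating enzyme that works with the APC/C, was at 6.76 and 6.69 in KrasD12 samples and at 6.04 and 5.91 in WT samples. It rose by 0.75 ± 0.0786, or 1.68-fold (adjusted p = 0.0014), and by 0.4137 after quantile normalization (adjusted p = 0.00854). Cdc20, the APC/C activator that the spindle checkpoint holds in check, was at 6.98 and 7.03 in KrasD12 samples and at 6.31 and 6.33 in WT samples. Both KrasD12 values of each gene lay above both WT values. Cdc20 rose by 0.685 ± 0.0664, or 1.61-fold (adjusted p = 0.00118), and by 0.3794 after quantile normalization (adjusted p = 0.00645).

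Pttg1 encodes securin, the separase inhibitor that the APC/C with CDC20 destroys at anaphase, and went the other way. Pttg1 was at 6.38 and 6.22 in KrasD12 samples, against 7.13 and 6.95 in WT samples, with no overlap. Its difference was -0.74 ± 0.0977, or 1.67-fold lower (adjusted p = 0.00249), and -1.035 after quantile normalization (adjusted p = 0.000672). Espl1, the gene of separase itself, was at 5.96 and 6.16 in KrasD12 samples and 6.01 and 5.9 in WT samples, which overlap, with a difference of 0.105 ± 0.0949 that was called on neither scaling.

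Among the other 19 APC/C subunits and regulators, all measured, 3 rose and 3 fell. Each count is 15.8% of the list, where 22.4% of all genes rose and 11.5% fell. Mad2l1bp, which strips MAD2 from checkpoint complexes, rose by 0.575 ± 0.0869, the subunit gene Anapc7 by 0.425 ± 0.0771, and Fzr1, the CDH1 activator of late mitosis and G1, by 0.41 ± 0.0726. The subunit genes Anapc15 and Anapc5 had differences of -0.52 ± 0.1051 and -0.28 ± 0.0732. Fbxo5 (EMI1, an APC/C inhibitor) had one of -0.475 ± 0.1249. The median of the 19 was 0.075. Set against all genes with a like mean, 10 of the 19 lay below the median, by a median of -0.085 over the list. Centring each column on its median gave 0 rises and 10 falls in this list, and a replicate block gave 3 rises and 1 fall.

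**Figure D3:**
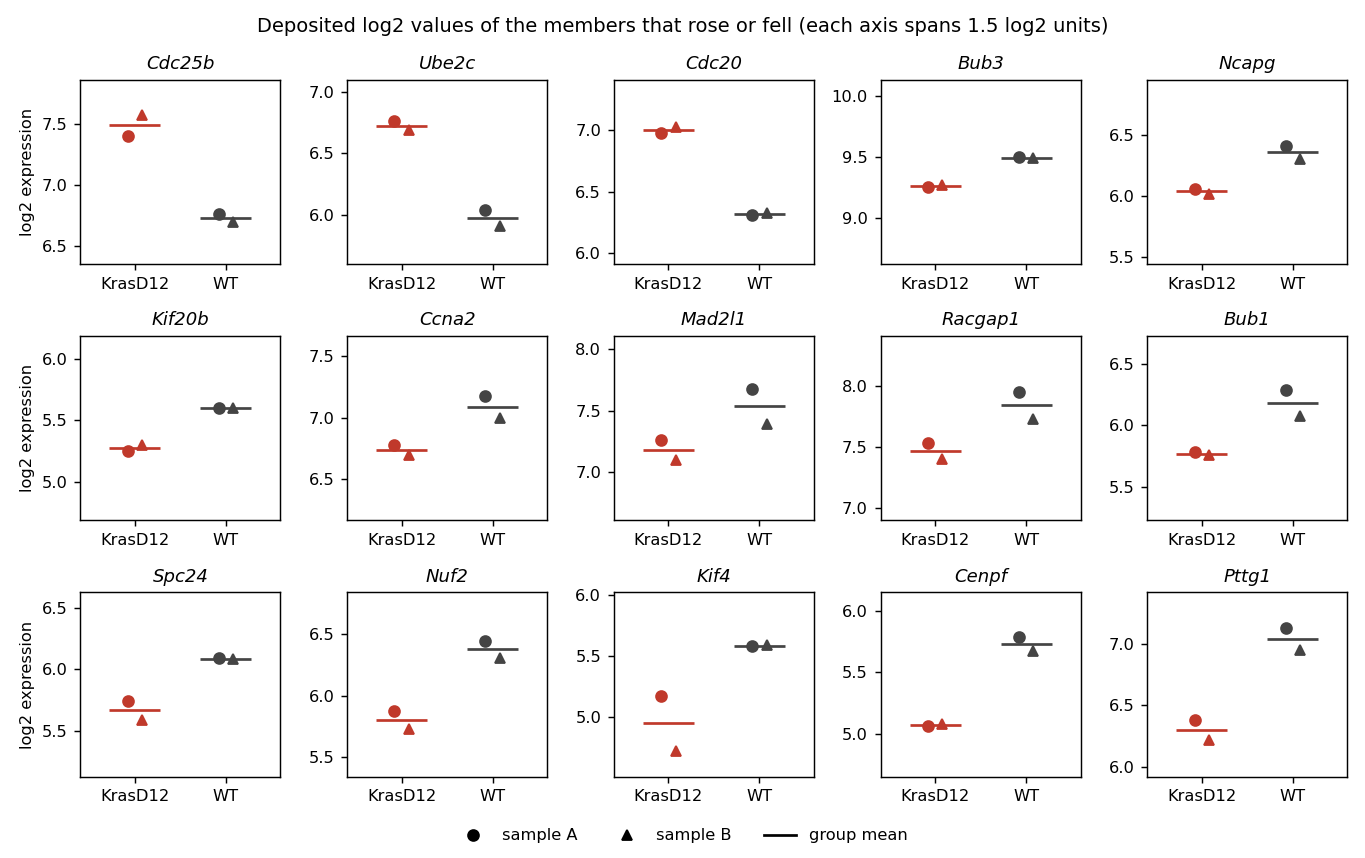
Deposited log2 values of the genes that rose or fell in each sample, KrasD12 A and B left of WT A and B. The 15 genes were chosen by calls made on these same values, and their KrasD12 points do not overlap the WT points. Of all genes tested, 64.3% had both KrasD12 samples above both WT samples and 18.7% had both below.

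The CDC25 phosphatases remove inhibitory phosphates from CDK1. Cdc25b, whose product acts at entry into mitosis, was at 7.4 and 7.57 in KrasD12 samples and at 6.76 and 6.7 in WT samples. It rose by 0.755 ± 0.0847, or 1.69-fold (adjusted p = 0.00163), and by 0.5025 after quantile normalization (adjusted p = 0.00546), the largest positive difference among the 57 on either scaling. Its paralogs did not pass. Cdc25a was at 7.42 and 7.49 in KrasD12 samples and 7.37 and 7.46 in WT samples, which interleave, and the difference of Cdc25c was 0.25 ± 0.0965.

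Of the mitotic cyclin genes, Ccna2 fell. Ccna2, cyclin A2 of S phase and G2, was at 6.78 and 6.7 in KrasD12 samples and 7.18 and 7 in WT samples, a difference of -0.35 ± 0.0881 (adjusted p = 0.0187) and of -0.6338 after quantile normalization (adjusted p = 0.00238). Ccnb2 (cyclin B2, a CDK1 partner) differed by 0.16 ± 0.1036 and Ccnf (cyclin F, the substrate receptor of a ubiquitin ligase) by 0.18 ± 0.0649, and neither was called on either scaling.

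Of the 10 kinase genes, none rose, where 22.4% of all genes did, and Bub1 fell (10% of the group, against 11.5% of all genes). Bub1, a spindle checkpoint kinase at the kinetochore, was at 5.78 and 5.76 in KrasD12 samples and 6.29 and 6.08 in WT samples. The difference was -0.415 ± 0.091 (adjusted p = 0.0119) and -0.775 after quantile normalization (adjusted p = 0.0013). Its relative Bub1b, which encodes the checkpoint protein BUBR1, had a difference of opposite sign, 0.355 ± 0.096, called on the deposited values and not after quantile normalization, where it was 0.02.

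Cdk1 showed the same dependence on scaling, with 7.72 and 7.72 in KrasD12 samples and 7.5 and 7.39 in WT samples. Its difference of 0.275 ± 0.0726 passed on the deposited values (adjusted p = 0.0218) and was 0.0625 after quantile normalization (adjusted p = 0.537). Nek2, a centrosome-splitting kinase, differed by 0.48 ± 0.0694 on the deposited values (adjusted p = 0.00319) and by 0.1475 after quantile normalization (adjusted p = 0.157). Aurka, the spindle pole Aurora kinase, likewise passed on the deposited values alone at 0.345 ± 0.097. Aurkb, the Aurora kinase of the chromosomal passenger complex, was lower after quantile normalization alone (-0.4975, adjusted p = 0.00364), as were Plk4 (centriole duplication), Ttk (the checkpoint kinase MPS1) and Melk. Plk1, the main Polo-like kinase, was called on neither, at 0.22 ± 0.0884 and -0.0438. The 10 kinases had a median of 0.1425 as deposited and of -0.1894 after quantile normalization.

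The centromere and kinetochore genes are the largest role group and held the most falls. Of 12 genes 5 fell (41.7%, against 11.5% of all genes) and none rose, where 22.4% of all genes did. On the deposited values 9 had a negative difference and the median was -0.245, or -0.545 after quantile normalization. Cenpf, a large coiled-coil protein of the outer kinetochore, was at 5.06 and 5.08 in KrasD12 samples and 5.79 and 5.67 in WT samples. Its difference was -0.66 ± 0.0743, or 1.58-fold lower (adjusted p = 0.00165), and -1.0438 after quantile normalization (adjusted p = 0.000253). The KrasD12 values lie under the dim level, so this difference may be compressed.

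The NDC80 complex, the 4-subunit rod that couples the kinetochore to microtubules, had negative differences in all its 4 genes. Nuf2 was at 5.88 and 5.73 in KrasD12 samples and 6.45 and 6.31 in WT samples, and fell by 0.575 ± 0.0898 (adjusted p = 0.00405), with a difference of -0.9288 after quantile normalization. Spc24 was at 5.74 and 5.59 in KrasD12 samples and 6.09 and 6.08 in WT samples, with a difference of -0.42 ± 0.079 (adjusted p = 0.00721), or -0.7825 after quantile normalization. In both genes the KrasD12 samples lay below the WT samples. Ndc80 (-0.13 ± 0.0854) and Spc25 (-0.17 ± 0.112) passed only after quantile normalization, at -0.5012 and -0.4087.

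The mitotic checkpoint complex joins MAD2, BUBR1 and BUB3 to CDC20, and its genes did not share a direction. Mad2l1, the gene of MAD2, was at 7.26 and 7.1 in KrasD12 samples and 7.68 and 7.39 in WT samples, with a difference of -0.355 ± 0.1199 (adjusted p = 0.0472), or -0.5888 after quantile normalization. Bub3 was at 9.26 and 9.27 in KrasD12 samples and 9.5 and 9.49 in WT samples, with a difference of -0.23 ± 0.0645 (adjusted p = 0.0265), or -0.3038 after quantile normalization. The adjusted p of Mad2l1 and Bub3 on the deposited values lay closer to 0.05 than those of the other 13 genes that rose or fell. Cdc20, the target of this complex, rose as given above, and Bub1b was called on the deposited values alone.

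In the inner centromere, Cenpa, the histone H3 variant that marks centromeres, was at 7.36 and 7.36 in KrasD12 samples and 6.86 and 7.03 in WT samples. This difference of 0.415 ± 0.0827 passed on the deposited values (adjusted p = 0.0087) and was 0.165 after quantile normalization (adjusted p = 0.145). Cenpe, a kinetochore motor, had the largest deposited difference of the group at 0.725 ± 0.1674, with 6.6 and 6.16 in KrasD12 samples and 5.78 and 5.53 in WT samples. It was 0.3662 after quantile normalization (adjusted p = 0.114), and its KrasD12 samples lay further apart than those of any other gene of the group. The constitutive centromere genes Cenph and Cenpk passed only after quantile normalization, at -0.66 and -0.8062, and Cenpi passed on neither scaling.

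Of 29 further kinetochore and centromere genes measured, 3 rose (10.3%) and 2 fell (6.9%), where 22.4% and 11.5% of all genes did. Their median was 0.255, against 0.26 for all genes. Ska1, of the SKA complex that supports microtubule attachment, was at 5.45 and 5.51 in KrasD12 samples and 4.35 and 4.38 in WT samples, below the dim level in WT. Its rise of 1.115 ± 0.0675 (adjusted p = 0.000508) was the only one of this list over 2-fold, and was 0.7138 after quantile normalization. Cenpc1, which links centromeric chromatin to the outer kinetochore, rose by 0.79 ± 0.0921 and Dsn1 of the MIS12 complex by 0.68 ± 0.0699. Cenpq and Cenpu, which share a subcomplex of the inner kinetochore, had differences of -0.515 ± 0.0822 and -0.48 ± 0.1155, but Cenpu lay below the dim level in all 4 samples and Cenpq in 1 KrasD12 sample.

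Of the 10 kinesin genes, which encode microtubule motors, 2 fell (20%, against 11.5% of all genes) and none rose, where 22.4% of all genes did. Kif4, a chromosome-bound kinesin that also sets the length of the central spindle, was at 5.17 and 4.73 in KrasD12 samples and 5.58 and 5.59 in WT samples. The difference was -0.635 ± 0.149, or 1.55-fold lower (adjusted p = 0.0148), and -1.0225 after quantile normalization (adjusted p = 0.00263), with 1 KrasD12 sample above the dim level and the other below it. Kif20b, a kinesin of cytokinesis, was at 5.25 and 5.3 in KrasD12 samples and 5.6 and 5.6 in WT samples, a difference of -0.325 ± 0.0661 (adjusted p = 0.0093), or -0.71 after quantile normalization.

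Kif22, Kif11 and Kif2c were higher on the deposited values alone. Kif22, a motor on chromosome arms, differed by 0.6 ± 0.1329, Kif11, the motor that separates spindle poles, by 0.46 ± 0.1235, and Kif2c, a microtubule depolymerase, by 0.315 ± 0.0723. After quantile normalization these 3 differences were 0.2438, 0.08 and -0.0413. Kif23, the motor of centralspindlin, and Kif14 passed only after quantile normalization, in the lower direction. Kif15, Kif18a and Kif20a were called on neither scaling, and the deposited values of each overlapped between groups.

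Condensin folds mitotic chromosomes, and 1 of its 5 genes fell (20%, against 11.5% of all genes). Ncapg, a subunit of condensin I, was at 6.06 and 6.02 in KrasD12 samples and 6.41 and 6.3 in WT samples, a difference of -0.315 ± 0.0736 (adjusted p = 0.0146), or -0.6613 after quantile normalization. Ncaph and Smc4 were higher on the deposited values alone, at 0.505 ± 0.0886 and 0.39 ± 0.0965. Smc2 and Ncapd2 passed on neither scaling. Of 17 cohesin and cohesion genes, Stag2, Nipbl, Pds5b and Wapl rose by 0.4 to 0.68. Esco2, an acetyltransferase of cohesin, and the condensin II gene Ncapg2 fell by 0.33 and 0.27. These 4 rises (23.5%) and 2 falls (11.8%) were near the shares of all genes, 22.4% and 11.5%. Esco2 lay below the dim level in all 4 samples. Centring each column on its median gave 1 rise and 6 falls in this list.

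Among 8 genes of the spindle, midzone and cytokinesis, Racgap1 fell (12.5% of the group, near the 11.5% of all genes). Racgap1, the GTPase-activating partner of KIF23 in centralspindlin, was at 7.53 and 7.4 in KrasD12 samples and 7.95 and 7.73 in WT samples, a difference of -0.375 ± 0.1011 (adjusted p = 0.0234), or -0.5762 after quantile normalization. Prc1, the microtubule bundler of the midzone and partner of KIF4, differed by -0.335 ± 0.1351 and passed only after quantile normalization, at -0.645, as did Tpx2, an activator of Aurora A, at -0.34. Birc5 (survivin, of the chromosomal passenger complex) passed on the deposited values alone, at 0.56 ± 0.0864, as did the spindle gene Nusap1 at 0.215 ± 0.0728. Ect2 and Anln, which organise the contractile ring, and Hmmr, a spindle-pole protein, were called on neither scaling, and their differences ran from 0.2 to 0.235.

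The proliferation marker Mki67, which coats mitotic chromosomes, was at 7.25 and 7.29 in KrasD12 samples and 7.65 and 7.36 in WT samples. The groups do not overlap, but the higher KrasD12 value and the lower WT value are only 0.07 apart on the log2 scale. Its difference of -0.235 ± 0.1102 did not pass on the deposited values (adjusted p = 0.114) and passed after quantile normalization at -0.4662 (adjusted p = 0.0117). Top2a also passed only after quantile normalization, at -0.36, but its deposited values overlap between groups. Its other row lay below the dim level in all samples and differed in the other direction, by 0.425.

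Around the 58 genes, 7 lists of related genes held 151 genes, of which 144 were measured, 23 rose (16.0%) and 17 fell (11.8%). Of all genes tested 22.4% rose and 11.5% fell, so the share that fell in these lists was near that of all genes. Quantile normalization lowered the difference of every one of these genes that rose or fell. Of 25 other spindle, midzone and cytokinesis genes 6 rose (24%) and 3 fell (12%), close to the shares of all genes. Kpna2, an importin that binds spindle assembly factors, had the largest fall of the list at -1.235 ± 0.1755, with 7.88 and 7.37 in KrasD12 samples and 8.94 and 8.78 in WT samples. Ckap2, a microtubule-associated spindle gene, rose by 0.885 ± 0.0736, Cit (citron kinase of the midbody) by 0.695 ± 0.0873, and Kif18b by 0.585 ± 0.0862. Aspm of the spindle pole and Cep55 of the midbody had differences of -0.36 ± 0.0735 and -0.4 ± 0.0782. Both KrasD12 samples of Cep55 (4.97 and 5.11) lay below the dim level.

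Of 17 other mitotic kinases and phosphatases, Plk3 rose by 0.81 ± 0.1129, Pbk had a difference of -0.73 ± 0.1301, and 15 were not called in the same direction on both scalings. After quantile normalization 7 of the 17, Pbk included, were lower (41.2%, against 24.4% of all genes). As deposited 4, Plk3 included, were higher (23.5%, against 50.1% of all genes). Of 17 regulators of G2/M transcription, Lin9, a MuvB subunit, rose by 0.805 ± 0.1284, with both WT samples (4.6 and 4.25) below the dim level, Nfyc, an NF-Y subunit, by 0.555 ± 0.0851, and Rbbp4 by 0.445 ± 0.0702. Mybl2, which encodes B-MYB, fell, at 5.9 and 6.16 in KrasD12 samples and 6.31 and 6.54 in WT samples, with a difference of -0.395 ± 0.124 (adjusted p = 0.0378), or -0.7412 after quantile normalization. Foxm1 passed in neither direction at 0.2. The 3 rises were 17.6% of these regulators and the 1 fall 5.88%, against 22.4% and 11.5% of all genes.

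DNA replication genes were split too. Of 20 genes 5 fell (25%) and 3 rose (15%), against 11.5% and 22.4% of all genes. Rrm2, the small subunit of ribonucleotide reductase, was at 6.55 and 6.61 in KrasD12 samples and 7.7 and 7.7 in WT samples, a difference of -1.12 ± 0.0669 (adjusted p = 0.000494). Prim1 (primase) and Pcna (the polymerase clamp) had differences of -0.69 ± 0.0938 and -0.63 ± 0.0844. Within the MCM helicase Mcm2 rose by 0.615 ± 0.0728 and Mcm4 by 0.48 ± 0.068, while Mcm5 had a difference of -0.38 ± 0.065.

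**Figure D4:**
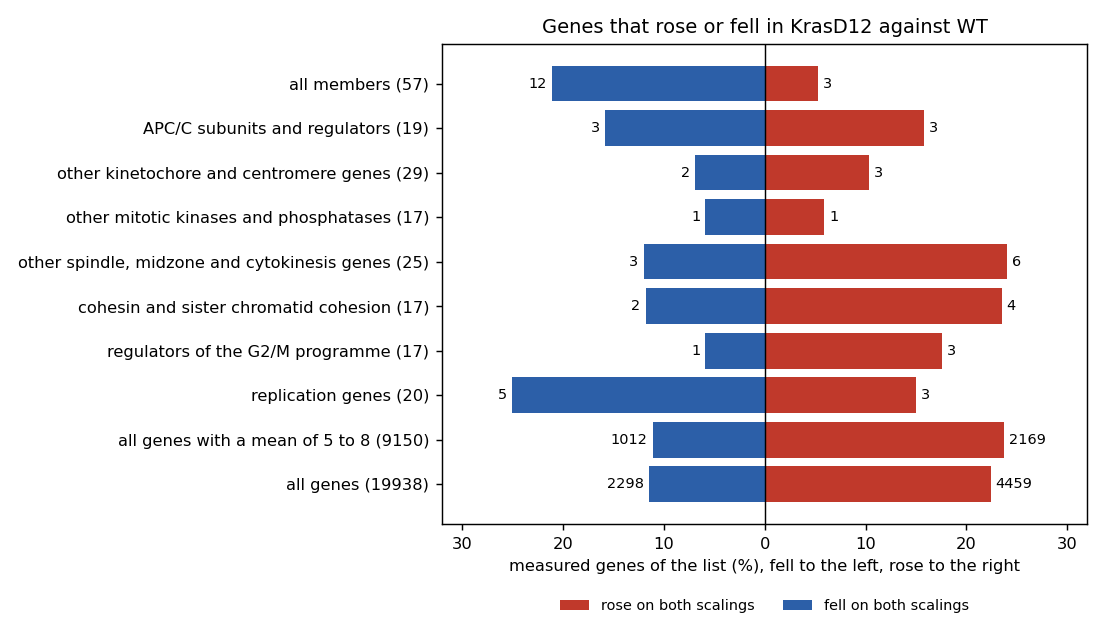
Share (%) of the measured genes of each list that fell (to the left) or rose (to the right) in KrasD12 against WT on both scalings, with the number of genes at each bar. The mitosis genes hold 12 falls (21.1%) and 3 rises (5.26%), against 2298 falls (11.5%) and 4459 rises (22.4%) among all genes.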

How the data were processed

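RNA of 4 lung fibroblast samples, 2 of a KrasD12 line and 2 of a WT line, was measured on Affymetrix arrays. The deposited values are log2 expression values, as their range of 2.28 to 14.95 shows. Per the submitters' processing notes the Transcriptome Analysis Console was used. Its version and how background and scale were handled are not given in the sources. Of 28944 rows, 21789 carry 1 gene symbol in the platform annotation, 1621 several and 5534 none, and rows with several or none were left out of the gene tests. The highest-mean row stood for a gene. Current symbols came from RefSeq genes of assembly GRCm38.p6.

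The test of each gene was limma's two-sided moderated test of group (version 3.58.1, lmFit and eBayes, R 4.3.3). P-values were Benjamini-Hochberg adjusted across the 19938 genes, once for the values as deposited and once for values quantile normalized over all rows. The script was tested on simulated data without a shift between the groups, so that test does not cover the shift of the deposited columns. For arrays, their number limits the precision: 2 residual degrees of freedom remain. The mitosis genes, the related lists and the requirement of a call on both scalings were chosen with earlier results of these data known. Of the mitosis genes, sample values are given for the 15 that rose or fell and for Cdk1, Cdc25a, Cenpa, Cenpe, Espl1 and Mki67. Many other genes whose call depends on the scaling are given by their difference alone. From each related list up to 4 of the called genes with the largest differences are named, and any further ones were chosen after their values were seen. Alternatives were median centring, cyclic loess, a replicate block, leaving dim genes out, a trended or a robust eBayes, averaging the rows of a gene, limma's treat at 1.2-fold, a 2-fold minimum and each array left out in turn. Tables and plots used data.table (1.17.8), Python 3.11.15, pandas 2.3.3 and matplotlib 3.10.9.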

Additional observations from a re-analysis of the deposited data

How the results depend on the processing

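Against 3 rises and 12 falls on both scalings, the deposited values alone gave 16 rises and 12 falls, quantile normalization alone 3 and 26, median centring 3 and 27, and cyclic loess 3 and 28. With limma's treat at 1.2-fold 0 rose and 3 fell, and with a difference of at least 1 on both scalings 0 rose and 0 fell. Leaving out 1 array gave 0 to 2 rises and 0 to 3 falls. On the deposited values the 16 higher genes became 5 under treat and 0 to 5 with an array left out, and the 12 lower ones 3 under treat and 0 to 3 with an array left out. With an array left out 1 group holds a single sample, assumed to vary like the other group, and calls were lost over all genes tested as well. Over all genes tested, the letters A and B did not pair the samples (correlation of deviations 0.0132). This correlation was not computed for the mitosis genes alone. Some, such as Kif23 and Top2a, had sample A above sample B in both groups, and others, such as Aurkb, did not. A fit with the letter as a replicate block gave 4 rises and 11 falls. Among the 15 genes that rose or fell, 180 recomputed differences over 12 settings held 126 with the same call, 54 with the call lost, and 0 of opposite sign. Only median centring and cyclic loess could have changed a sign. The other settings reuse the deposited difference, are part of the definition of rose and fell, or leave out an array from groups that do not overlap.

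Of the 57 differences 32 were positive as deposited and 15 after quantile normalization. The sign changes that follow are those of genes called on the deposited values or under the setting named, and other genes changed sign without a call. Under quantile normalization Ttk was -0.335, Kif2c -0.0413 and Nusap1 -0.1687. Under median centring Cdk1 was -0.07, Ttk -0.28, Cdc25a -0.305, Kif2c -0.03 and Nusap1 -0.13. Under cyclic loess Ttk was -0.3352, Ccnf -0.2153, Kif2c -0.061, Espl1 -0.2664 and Nusap1 -0.1949. These 3 scalings remove or reduce the higher median of the KrasD12 columns. With the mean of its rows Kif14 was 0.255. In the related lists median centring gave 0 rises and 10 falls for the APC/C, 4 and 9 for the kinetochore, 1 and 11 for kinases and phosphatases, 2 and 9 for the spindle, 1 and 6 for cohesin, 1 and 5 for G2/M regulators, and 1 and 8 for replication. Cyclic loess gave 3 to 8 falls in each of these lists.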
